A study of Mus musculus with 24 samples.

Results

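The hippocampus of adult male mice in which Kdm5c had been removed late and in forebrain neurons alone was compared with that of control mice. Both groups were sequenced as 3 libraries, so 6 of the 18 libraries of the series enter the main comparison. They were chosen by their genotype labels, and each library has 1 count file, although the series holds 24 sample records because both reads of a pair are listed. The inducible forebrain knockout (ifKO) carried floxed Kdm5c alleles and a tamoxifen-dependent Cre recombinase, creERT2, driven by the CaMKIIα promoter, on a pure C57BL/6J background. The other group is labelled control on the same background. Whether the controls carried Cre or received tamoxifen, and how long before dissection Cre was switched on, were not given in the sources used here. All mice were untreated males of 2 to 4 months, and the RNA of 3 mice was pooled in each library. A library is therefore a pool, and p-values measure the spread between pools. A second pair of groups serves for comparison: mice that lacked Kdm5c in every cell throughout life (KO) and their wild-type counterparts, untreated, of the same age and sex, on a mixed C57 and 129 background, with 3 libraries each. The remaining libraries of the series come from KO and wild-type mice after novelty exploration. They enter the fits of KO and of the difference between the mutants, but not the groups compared. The tissue labels say hippocampus, whereas the extraction text speaks of cultures.

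Kdm5c is an X-linked gene whose protein removes methyl groups from trimethylated and dimethylated lysine 4 of histone H3, marks found at active promoters and enhancers. The enzyme is best known as a repressor that keeps promoters low where their products are not needed, and loss-of-function mutations of its human counterpart cause a form of X-linked intellectual disability. The Camk2a promoter is active in excitatory neurons of the forebrain after birth. It is not active in glia or vessels, whereas the RNA came from the whole tissue.

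Counts in genes totalled 36.3 to 43.1 M in the ifKO libraries and 37.4 to 44.0 M in the controls. Markers of excitatory neurons were high in all 6 libraries, with summed levels of 6642 to 7001 counts per M (CPM) in ifKO and 6094 to 6528 CPM in controls. Most of that sum was Camk2a, whose promoter drives the transgene, with 4230 to 4311 CPM in ifKO and 3724 to 4064 CPM in controls. The mean log2 of CPM plus 1 over these markers overlapped between the groups. It was 6.63 to 6.78 in ifKO and 6.61 to 6.67 in controls. Some libraries stood apart from others of their group. Among controls, library 1 differed from libraries 2 and 3 by a chi-square per degree of freedom of 5.46 and 5.38. Control libraries 2 and 3 differed from each other by 3.64. Pairs of ifKO libraries differed by 5.47 to 6.51. Library 2 of ifKO was nearer to control libraries 2 and 3, at 4.15 and 4.19, than to the other ifKO libraries. Results are also given without ifKO library 1 and control library 3 together, a pair chosen after the data were seen. Control library 1 was high in markers of the choroid plexus, the secretory epithelium of the ventricles, with Ttr at 9.23, 17.8 and 41.3 CPM in ifKO and 337, 18.3 and 37.6 CPM in controls.

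Kdm5c, the targeted gene, had 69.0, 63.6 and 65.3 CPM in ifKO and 62.1, 67.5 and 62.4 CPM in controls. The groups overlapped, and the log2 fold change was 0.04 ± 0.05 (edgeR adjusted p = 0.927). A count over the whole gene includes reads outside the floxed exons and from cells without Cre, so it does not check the deletion. In lifelong KO the log2 fold change of Kdm5c was 0.01.

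Few genes passed the test after late loss of Kdm5c, and nearly all that did were higher in ifKO. With edgeR's quasi-likelihood test and an adjusted p under 0.05, 112 of 17367 tested genes changed in ifKO, which is 0.645% of them. At an unadjusted p under 0.05 the share was 6.64%. Of the 112 genes, 107 were higher in ifKO, or 0.616% of the genes tested, and 5 were lower, or 0.0288%. The rises spanned from 1.12-fold to 10.7-fold among genes that reached 1 CPM. Among the genes that rose, 61 did so over 1.5-fold, 33 of these over 2-fold, and 46 by up to 1.5-fold, whereas Ogn was the 1 gene that fell over 2-fold. The median log2 fold change was 0.75 for the genes that rose and 0.00 over all genes tested. In each of the 112 genes the 3 ifKO libraries lay entirely above or below the 3 controls. The same separation occurred upwards in 6.55% and downwards in 5.48% of all tested genes. Without ifKO library 1 and control library 3, 49 genes were called, 46 higher and 3 lower. Without control library 1 the number was 102. The number of calls fell to 72 without ifKO library 2, to 71 without control library 2 and to 56 without control library 3.

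**Figure D1:**
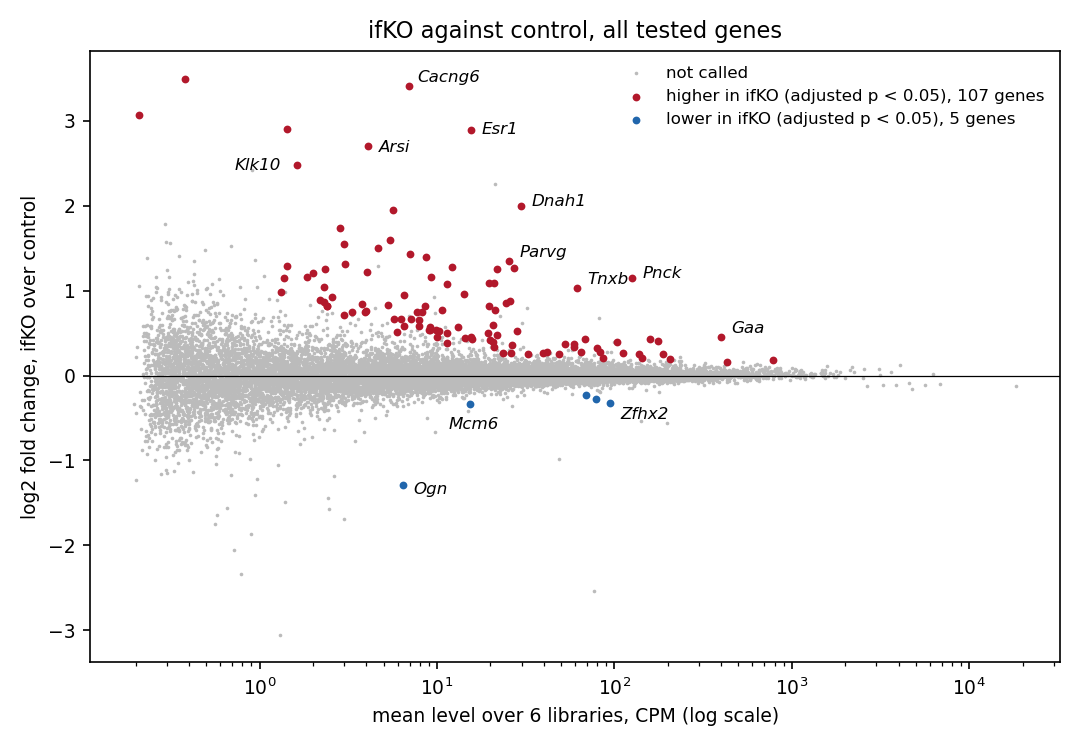
Fitted log2 fold change of ifKO over control (vertical axis) against the mean level over the 6 libraries in CPM (horizontal axis, log scale), with 1 point per tested gene. The 107 genes higher in ifKO (red) reach from levels below 1 CPM upwards, and the 5 lower genes (blue) include Ogn at a log2 fold change of -1.29.

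The largest rises were in genes with little RNA per kilobase of transcript in the control hippocampus. Among genes with a mean of 1 CPM or more the highest belonged to Cacng6, a γ subunit of voltage-gated calcium channels known from skeletal muscle. Its start on chromosome 7 (chr7:3424195-3435667, plus strand, GRCm38) lies 0.75 kb from the start of the long noncoding RNA 3300002P13Rik (chr7:3421665-3423445, minus strand), which is transcribed in the opposite direction, away from Cacng6, and rose as well. Klk10, a member of the kallikrein family of secreted serine proteases (chr7:43781035-43785410, plus strand), and Dnah1, an axonemal dynein heavy chain that moves cilia and sperm tails (chr14:31260375-31323896, minus strand), followed. The promoter windows of these 4 genes are shown because the enzyme acts at promoters, together with that of Tex14, a germ cell gene that rose in KO and is described further on. They come from RefSeq (GRCm38.p6) and run from 250 bases before to 50 bases after the start that RefSeq lists, read 5′ to 3′ on the gene's strand. Capitals mark CG dinucleotides. The Cacng6 window begins at 3424412, past the gene start of 3424195 given above, so it does not cover that start.
Cacng6, chr7:3424412-3424711, plus strand: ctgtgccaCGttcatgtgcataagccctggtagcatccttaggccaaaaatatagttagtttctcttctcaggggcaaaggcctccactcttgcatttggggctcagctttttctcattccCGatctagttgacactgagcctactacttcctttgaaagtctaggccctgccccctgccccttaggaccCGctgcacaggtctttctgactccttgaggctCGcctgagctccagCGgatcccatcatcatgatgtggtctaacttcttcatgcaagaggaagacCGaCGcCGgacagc
3300002P13Rik, chr7:3423396-3423695, minus strand: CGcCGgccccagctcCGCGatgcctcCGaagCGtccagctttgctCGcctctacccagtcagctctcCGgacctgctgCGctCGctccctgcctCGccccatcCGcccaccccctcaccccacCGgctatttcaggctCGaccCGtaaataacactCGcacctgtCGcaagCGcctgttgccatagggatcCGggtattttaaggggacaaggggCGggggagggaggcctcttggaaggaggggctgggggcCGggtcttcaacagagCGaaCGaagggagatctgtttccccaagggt
Klk10, chr7:43780804-43781103, plus strand: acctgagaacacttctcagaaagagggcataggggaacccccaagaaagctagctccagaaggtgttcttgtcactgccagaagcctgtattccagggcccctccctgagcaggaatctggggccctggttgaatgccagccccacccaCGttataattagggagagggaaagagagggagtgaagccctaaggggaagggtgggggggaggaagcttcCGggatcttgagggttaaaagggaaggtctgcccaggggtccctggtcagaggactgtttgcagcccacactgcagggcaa
Dnah1, chr14:31323847-31324146, minus strand: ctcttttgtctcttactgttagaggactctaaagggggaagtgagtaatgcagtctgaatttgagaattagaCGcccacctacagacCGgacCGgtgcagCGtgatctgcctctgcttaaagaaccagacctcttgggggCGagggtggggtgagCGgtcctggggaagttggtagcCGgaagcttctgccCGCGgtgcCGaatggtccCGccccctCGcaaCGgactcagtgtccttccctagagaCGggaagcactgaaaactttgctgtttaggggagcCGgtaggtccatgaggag
Tex14, chr11:87404815-87405114, plus strand: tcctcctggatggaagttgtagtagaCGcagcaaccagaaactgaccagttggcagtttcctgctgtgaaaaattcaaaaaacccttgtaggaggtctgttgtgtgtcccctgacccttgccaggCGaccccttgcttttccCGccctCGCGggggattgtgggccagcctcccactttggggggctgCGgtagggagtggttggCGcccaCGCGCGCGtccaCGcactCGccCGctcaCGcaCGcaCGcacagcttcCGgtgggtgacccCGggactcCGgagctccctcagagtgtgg
The windows hold 8 CG dinucleotides for Cacng6, 23 for 3300002P13Rik, 2 for Klk10, 15 for Dnah1 and 20 for Tex14.

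A promoter window was listed for 75 of the 107 genes that rose, and for 12315 of the 17367 genes tested. Where RefSeq lists several windows for a gene, the first was used. The windows of the rising genes held a median of 8 CG dinucleotides, with quartiles of 5 and 20, against a median of 20 with quartiles of 11 and 28 over all tested genes. For the 22 windows of genes that rose over 2-fold the median was 6. The motif CACGTG, the palindromic E-box, was present in 7 of the 75 windows, or 9.33%, and in 9.68% of the windows of all tested genes. The motif TCCCGC, part of the site bound by E2F6 and other E2F factors and sought on both strands, was present in 12 of the 75, or 16.0%, against 34.2% of the windows of all tested genes. Dnah1 and Tex14 hold TCCCGC once each and the other 3 printed windows do not, and none of the 5 holds CACGTG. These are counts of letters, with no test of a difference.

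Cacng6 stood at 11.7, 13.8 and 12.7 CPM in ifKO libraries 1, 2 and 3, against 1.45, 0.965 and 1.15 CPM in the controls. The lowest ifKO library was far above the highest control, and the log2 fold change was 3.42 ± 0.13 (SE; edgeR adjusted p = 6.21e-08). Its neighbour 3300002P13Rik had 2.04, 2.99 and 2.54 CPM in ifKO and 0.441, 0.214 and 0.340 CPM in controls, a log2 fold change of 2.91 ± 0.25 (edgeR adjusted p = 8.10e-05). Per kilobase of transcript, Cacng6 reached 6.45 CPM in ifKO and 0.602 CPM in controls, and 3300002P13Rik 2.31 CPM in ifKO and 0.304 CPM in controls.

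Klk10 had 2.97, 2.58 and 2.68 CPM in ifKO and 0.648, 0.348 and 0.475 CPM in controls. The groups did not overlap, and the log2 fold change was 2.48 ± 0.21 (edgeR adjusted p = 5.70e-05). Dnah1 was the most abundant of these genes, with 44.7, 50.0 and 48.1 CPM in ifKO against 11.3, 12.9 and 11.6 CPM in controls. Its replicates were tight within both groups, and it rose by 1.99 ± 0.06 on the log2 scale (edgeR adjusted p = 2.39e-08). The noncoding RNA 6430584L05Rik behaved alike, with 9.11, 9.03 and 8.65 CPM in ifKO against 2.49, 2.52 and 1.97 CPM in controls and a log2 fold change of 1.95 ± 0.11 (edgeR adjusted p = 1.81e-06).

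Another 5 genes complete the 12 largest rises at 1 CPM or more, beside Esr1 and Arsi, which are described next. Ido2, an indoleamine dioxygenase that opens the kynurenine route of tryptophan breakdown, had 7.37, 7.94 and 9.09 CPM in ifKO and 2.33, 3.06 and 2.67 CPM in controls. Its log2 fold change was 1.596 ± 0.12. Jsrp1, a protein of the junction between surface membrane and sarcoplasmic reticulum in skeletal muscle, rose by 1.55 ± 0.14, Itprid1 by 1.502 ± 0.12 and Acta1, the actin of skeletal muscle, by 1.43 ± 0.09. Amn, which encodes the membrane partner of the vitamin B12 receptor cubilin in gut and kidney, is the least even of them. It had 3.14, 2.89 and 7.08 CPM in ifKO and 1.22, 1.53 and 1.15 CPM in controls. One ifKO library stood well above the other two, and the log2 fold change was 1.74 ± 0.32 (edgeR adjusted p = 0.0303), or 1.22 without that library. The call on Amn was lost when any 1 control was left out, with an adjusted p of 0.0865 without control library 1. Below 1 CPM, the noncoding RNAs Gm37184 and Gm36937 had fold changes of this size, at 3.50 ± 0.47 and 3.08 ± 0.54 on the log2 scale. Gm36937, an antisense RNA, kept its call only when control library 1 was the one left out. Gm37184 had 0.442, 0.833 and 0.829 CPM in ifKO and 0.0777, 0.0804 and 0.0226 CPM in controls.

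**Figure D2:**
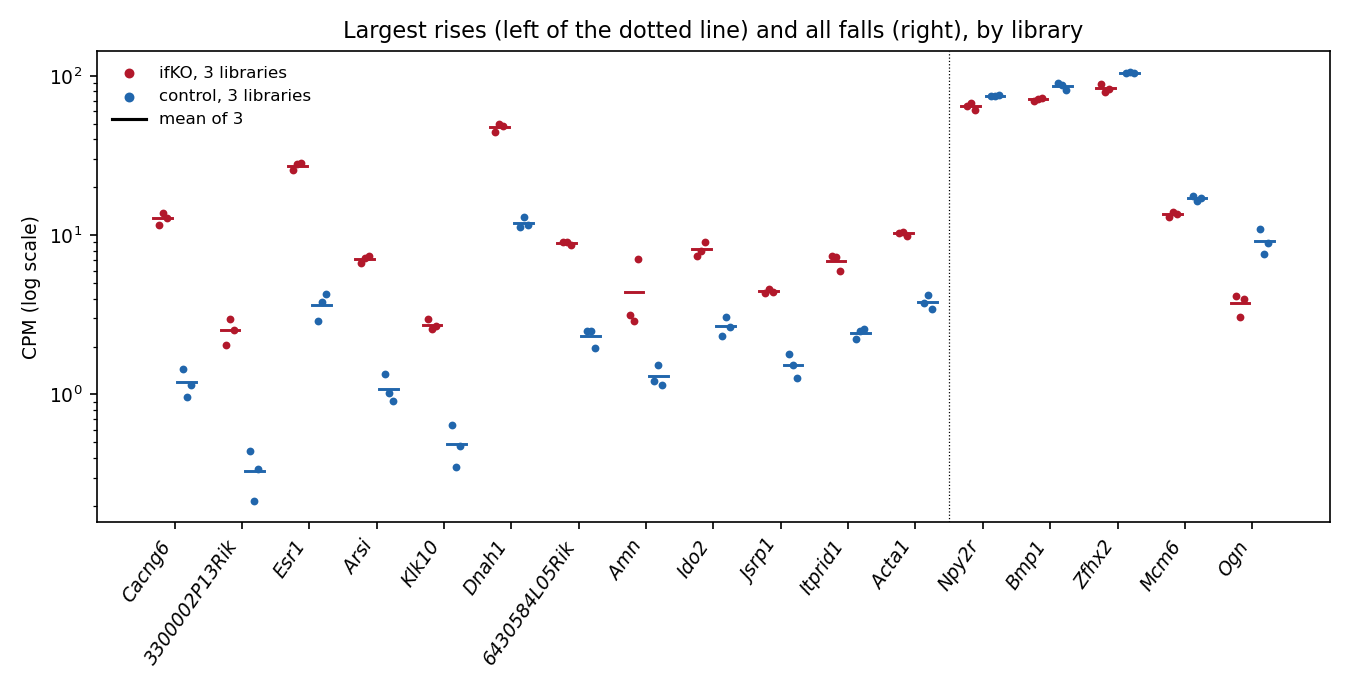
CPM (log scale) in each of the 3 ifKO libraries (red, left) and 3 control libraries (blue, right) for the 12 largest rises at 1 CPM or more and the 5 falls, with a line at each group's mean. The groups are separate for every gene shown, and Amn has 1 ifKO library at 7.08 CPM above the others.

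Esr1 and Arsi, both among the largest rises, are set apart because of the transgene. Esr1 encodes the oestrogen receptor α, and creERT2 is a fusion of Cre with a mutated ligand-binding domain of that receptor. Esr1 (chr10:4611593-5005614, plus strand) had 25.6, 27.9 and 28.5 CPM in ifKO and 2.90, 3.81 and 4.26 CPM in controls. All ifKO libraries were far above all controls, with a log2 fold change of 2.89 ± 0.11 (edgeR adjusted p = 5.20e-08). The counts do not show where in the gene the reads lie, so RNA of the gene and of the transgene cannot be told apart. In lifelong KO, which has no such transgene in its labels, the log2 fold change of Esr1 was -0.48 and did not pass the test (adjusted p = 0.374).

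Arsi, an arylsulfatase, ends 7.06 kb from Camk2a, whose promoter drives the transgene. It had 6.72, 7.24 and 7.35 CPM in ifKO and 1.35, 1.02 and 0.906 CPM in controls, a log2 fold change of 2.71 ± 0.14 (edgeR adjusted p = 9.37e-07). On the other side of Camk2a, 7.23 kb away, Slc6a7, the brain transporter of proline, had 120, 117 and 115 CPM in ifKO and 80.4, 97.2 and 90.9 CPM in controls. The groups did not overlap, and it rose by 0.39 ± 0.06 on the log2 scale (adjusted p = 0.00688), a call lost without control library 3. Camk2a itself was at 4230, 4276 and 4311 CPM in ifKO and 4064, 4004 and 3724 CPM in controls, and its log2 fold change of 0.12 ± 0.04 did not pass the test (adjusted p = 0.374). Of 30 tested genes within 1 Mb of Camk2a, these 2 neighbours were called, and the log2 fold changes of the other 28 lay between -0.38 and 0.63. In lifelong KO Arsi rose by 1.42 (adjusted p = 0.00902), and Slc6a7 stood at 0.05 (adjusted p = 0.923). The effects of the 2 mutants on Arsi and Slc6a7 did not pass the test of their difference, with adjusted p of 0.259 for Arsi and 0.997 for Slc6a7. Whether a transgene built from Camk2a sequences takes part in either rise cannot be told apart from loss of Kdm5c in these libraries.

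The remaining rises held several genes known mainly from tissues other than brain. The genes in this and the next 2 paragraphs were grouped after their values were seen, so the groups carry no test, and each gene has its own from edgeR. Of the list of striated muscle genes, 26 of 40 were abundant enough to be tested. Acta1 and Myl4, a myosin light chain of atrial and embryonic muscle, rose, with log2 fold changes of 1.43 and 0.93, and the other 24 did not pass, where 0.645% of all tested genes were called. The call on Myl4 held only when control library 3 was the one left out. The median over the 26 was 0.06, against 0.00 for all genes tested. Acta1 had 10.3, 10.5 and 9.92 CPM in ifKO and 3.76, 4.21 and 3.46 CPM in controls, so the groups were well apart. Outside that list, Pgam2, the muscle form of a glycolytic mutase, rose by 0.95, and Capn3, the muscle calpain, by 0.59. The epidermal keratins Krt9 and Krt1 rose by 1.26 and 0.76, and the call on Krt1 was lost without control library 3. Krt9 was very even, at 30.4, 30.4 and 31.1 CPM in ifKO and 12.8, 12.03 and 13.5 CPM in controls.

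Some of the genes that rose encode proteins of cell adhesion or of the extracellular matrix. Parvg and Parvb, neighbours on chromosome 15 with a gap of 8.34 kb, encode parvins, adaptors that tie integrins to actin through integrin-linked kinase. Parvg had 36.4, 37.1 and 36.8 CPM in ifKO and 14.7, 14.7 and 13.8 CPM in controls, with a log2 fold change of 1.35 ± 0.05 (adjusted p = 5.20e-08). The distance between the groups was many times the spread within them. Parvb rose by 0.53 ± 0.06 (adjusted p = 0.000448). Adamtsl2, a secreted glycoprotein of microfibrils, rose 2.64-fold, and Col22a1, a collagen of tissue junctions, by 1.28 on the log2 scale. Tnxb, which encodes the matrix protein tenascin X, had 71.0, 83.4 and 92.9 CPM in ifKO against 41.3, 39.2 and 40.5 CPM in controls, a log2 fold change of 1.03 ± 0.08 (adjusted p = 2.86e-05). Matn2, a matrilin, rose by 0.32, a call lost without ifKO library 2 or control library 2 or 3. Of the list of extracellular matrix genes, which holds none of these, none of the 46 tested members was called, 31 of them had log2 fold changes below 0, and the median was -0.05.

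Genes of signalling, metabolism and neuronal function rose too, most of them by less. Pnck, an X-linked calmodulin-dependent kinase of the CaMKI family, was the most abundant gene to rise over 2-fold, with 173, 170 and 179 CPM in ifKO against 71.3, 80.3 and 83.4 CPM in controls. Its log2 fold change was 1.15 ± 0.05 (adjusted p = 1.78e-07). Stra6, a membrane transporter of retinol, rose by 1.09, and Ddo, which oxidises D-aspartate, by 0.96. Gaa, the lysosomal α-glucosidase that breaks down glycogen, had 452, 461 and 469 CPM in ifKO and 327, 350 and 333 CPM in controls, a log2 fold change of 0.45 ± 0.03. Of potassium channel subunits, Kcnk4, a mechanosensitive background channel, rose by 0.54 ± 0.08 (adjusted p = 0.01002), as the 1 gene called among 52 tested, whose median was 0.04, where 0.645% of all tested genes were called. Its call was lost without control library 2 or 3. Among neuronal genes, the somatostatin receptor Sstr3 rose by 0.26, the calcium sensor of transmitter release Doc2a by 0.45, the pentraxin receptor Nptxr by 0.19 and the G protein subunit Gng7 by 0.19. The chromatin reader Zmynd8 rose by 0.41 ± 0.04 (adjusted p = 0.000104), and Kdm4b, a demethylase of lysine 9 of histone H3, by 0.20 ± 0.04 (adjusted p = 0.0339). The small rises were the least secure. The call on Kdm4b was lost on leaving out any 1 library, that on Nptxr held only without control library 2, and that on Sstr3 only without ifKO library 1. Doc2a lost its call without control library 2, and Gng7 without ifKO library 2 or control library 2 or 3. With offsets for GC content and length in the fit, Nptxr stood at 0.11 (adjusted p = 0.569), Sstr3 at 0.22 (adjusted p = 0.127), Kdm4b at 0.14 (adjusted p = 0.123) and Doc2a at 0.36 (adjusted p = 0.0563).

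In all, 5 genes were lower in ifKO. Ogn, which encodes the small proteoglycan osteoglycin and marks meningeal fibroblasts, had 4.16, 3.05 and 3.98 CPM in ifKO and 10.99, 7.61 and 8.87 CPM in controls. All ifKO libraries were below all controls, and it fell by 1.29 ± 0.15 on the log2 scale (edgeR adjusted p = 0.00100). The fall was 1.15 without control library 1, with an adjusted p of 0.00132. With all 18 libraries in the fit the adjusted p was 0.0781. The other falls were small. Mcm6, a subunit of the replicative helicase, had 12.9, 14.03 and 13.6 CPM in ifKO and 17.5, 16.5 and 17.1 CPM in controls, a log2 fold change of -0.34 ± 0.06 (adjusted p = 0.0352), and its call was lost on leaving out any 1 library. Zfhx2, a homeobox and zinc finger transcription factor, had 88.6, 79.4 and 82.8 CPM in ifKO and 104, 105 and 104 CPM in controls, with a log2 fold change of -0.32 ± 0.04 (adjusted p = 0.00334). It overlaps its antisense transcript Zfhx2os, which rose by 0.66 ± 0.11 (adjusted p = 0.0127), a call lost without ifKO library 2 or control library 3. The strand setting of the counting was not given in the sources used here, so both values are uncertain. Bmp1, a procollagen C-proteinase, fell by 0.28, and Npy2r, a neuropeptide Y receptor, fell by 0.22. The call on Bmp1 was lost without ifKO library 1 or 2 or control library 2, and Npy2r kept its call only when ifKO library 2 was the one left out.

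None of the 9 demethylases of lysine 4 of histone H3 was called, with log2 fold changes from -0.05 to 0.08, nor were any of 19 methyltransferases and subunits of their COMPASS complexes or 20 repressors of the PRC1.6 and DNA methylation group. Of 81 tested genes within 10 Mb of Kdm5c none was called. With 0.645% of all tested genes called, counts of 0 in groups of this size do not set them apart. Of the 107 genes that rose 2 were on the X chromosome, which is 1.87%, against 3.43% of all genes tested.

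Across 33 gene lists of pathways and cell types, 28 had no called member, where 0.645% of all tested genes were called. The others were the striated muscle genes and potassium channels given above, the CA1 markers with Spink8, the replication and cell cycle genes with Mcm6, and the meningeal fibroblast markers with Ogn. Spink8, a protease inhibitor known as a marker of CA1 pyramidal neurons, had 34.8, 34.0 and 31.0 CPM in ifKO against 17.8, 17.6 and 18.7 CPM in controls, a log2 fold change of 0.88 ± 0.06 (adjusted p = 6.19e-06). The other 12 tested CA1 markers did not pass the test, and the median of the 13 was 0.00. Markers of excitatory neurons (14 tested, median 0.04), dentate granule cells (16, -0.04), inhibitory neurons (23, -0.04), astrocytes (17, 0.04) and the oligodendrocyte lineage (19, 0.00) had no called member. The same held for microglia (18, 0.10), with 17 of 18 log2 fold changes above 0, for synaptic vesicle, adhesion and scaffold genes (43, 0.03), and for glutamate and GABA receptor subunits (36, -0.01). Of the 16 dentate granule cell markers, 6 had every ifKO library below every control, and 1 had every ifKO library above. Over all tested genes these shares were 5.48% and 6.55%. Immediate early genes, the first to respond to neuronal activity, had a median of 0.12, 28 of 34 above 0 and none called. Their summed level was 1326, 947 and 999 CPM in ifKO and 1036, 991 and 969 CPM in controls, so ifKO library 1 alone stood above the rest. In bulk tissue fewer cells of a type and less RNA per cell cannot be told apart.

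**Figure D3:**
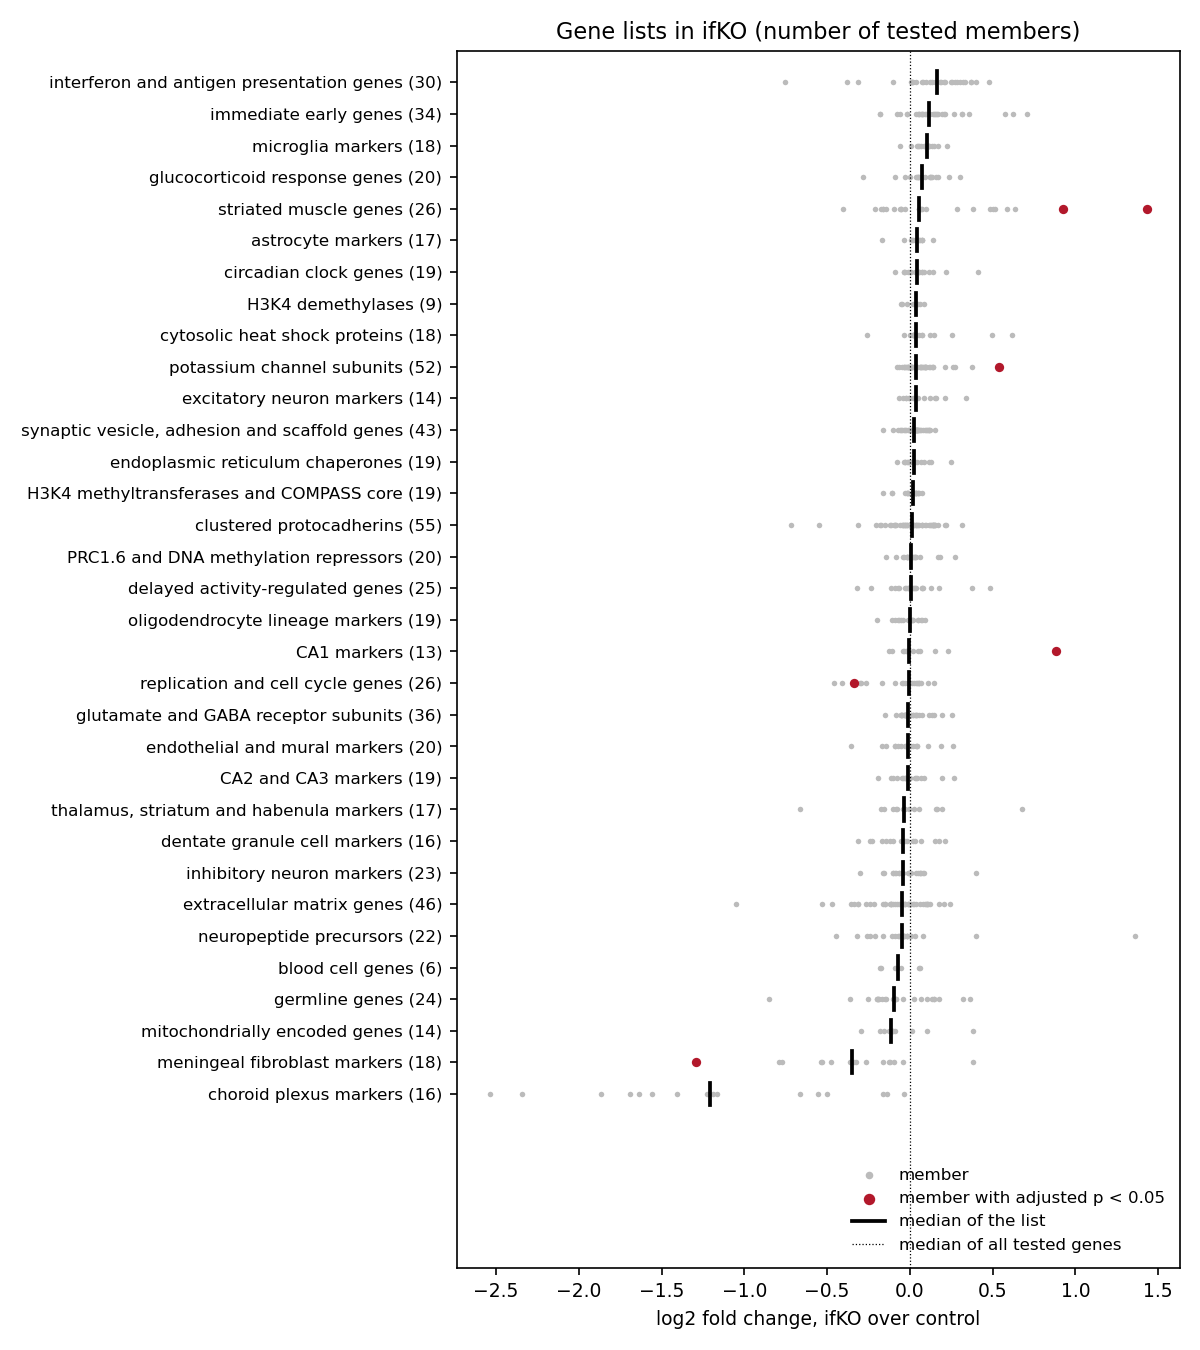
Log2 fold change of ifKO over control (horizontal axis) for the tested members of 33 gene lists, with the list's median as a bar and the median of all tested genes as a dotted line. The choroid plexus and meningeal lists lie to the left, with medians of -1.21 and -0.35, and the other 31 medians lie between -0.11 and 0.17.

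Of the markers of tissue at the edge of the hippocampus, the summed level for meningeal fibroblasts was lower in every ifKO library than in every control, whereas that for the choroid plexus was high in control library 1. All 16 choroid plexus markers had log2 fold changes below 0, with a median of -1.21 and none called. Their summed level was 199, 231 and 261 CPM in ifKO and 822, 214 and 248 CPM in controls, so the gap rested on control library 1. The mean was 230 CPM over the 3 ifKO libraries and 231 CPM over control libraries 2 and 3. Of 18 meningeal fibroblast markers 17 were below 0, with a median of -0.35 and Ogn as the 1 gene called. Their summed level was 279, 219 and 259 CPM in ifKO and 406, 295 and 287 CPM in controls. Here every ifKO library was below every control, with a mean of 253 CPM in ifKO against 291 CPM in control libraries 2 and 3. The part of meningeal tissue in the fall of Ogn was not tested.

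**Figure D4:**
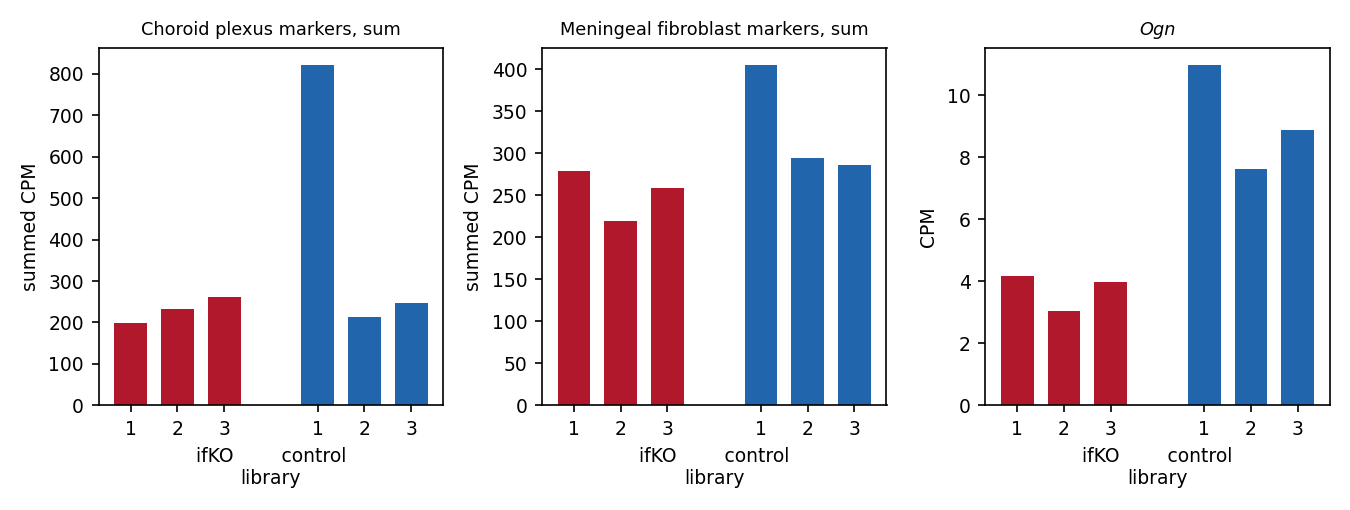
Summed CPM of choroid plexus and meningeal fibroblast markers and CPM of Ogn in the 3 ifKO libraries (red, left) and 3 control libraries (blue, right). Control library 1 reaches 822 CPM of choroid plexus markers and every ifKO library is below every control for Ogn.

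Most genes that rose after late loss of Kdm5c also rose after lifelong loss. In untreated KO against wild type 204 of 16392 tested genes were called, or 1.24%. Of these 178 genes were higher, or 1.09% of the genes tested, and 26 were lower, or 0.159%. Of the 107 genes higher in ifKO, 76 were also higher in KO, which is 71.0% of the ifKO set and 42.7% of the KO set, 165 of whose 178 genes were tested in ifKO. These comparisons share no library. Zfhx2, Mcm6 and Ogn were lower in both, and no gene was called in opposite directions. Of 111 genes called in ifKO and tested in KO, 110 had the same sign, Esr1 being the exception. Among the 76 shared rises, 57 had the smaller fold change in ifKO, with medians on the log2 scale of 0.82 in ifKO and 0.99 in KO. The 30 genes that rose in ifKO and were tested without a call in KO had medians of 0.45 in ifKO and 0.33 in KO, and 29 of them were above 0 in KO. Cacng6 rose by 3.42 in ifKO and 3.27 in KO, Dnah1 by 1.99 in ifKO and 2.17 in KO, and Parvg by 1.35 in ifKO and 1.28 in KO. The mutants differ in background, read length and flowcell, so each was compared with its own controls.

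**Figure D5:**
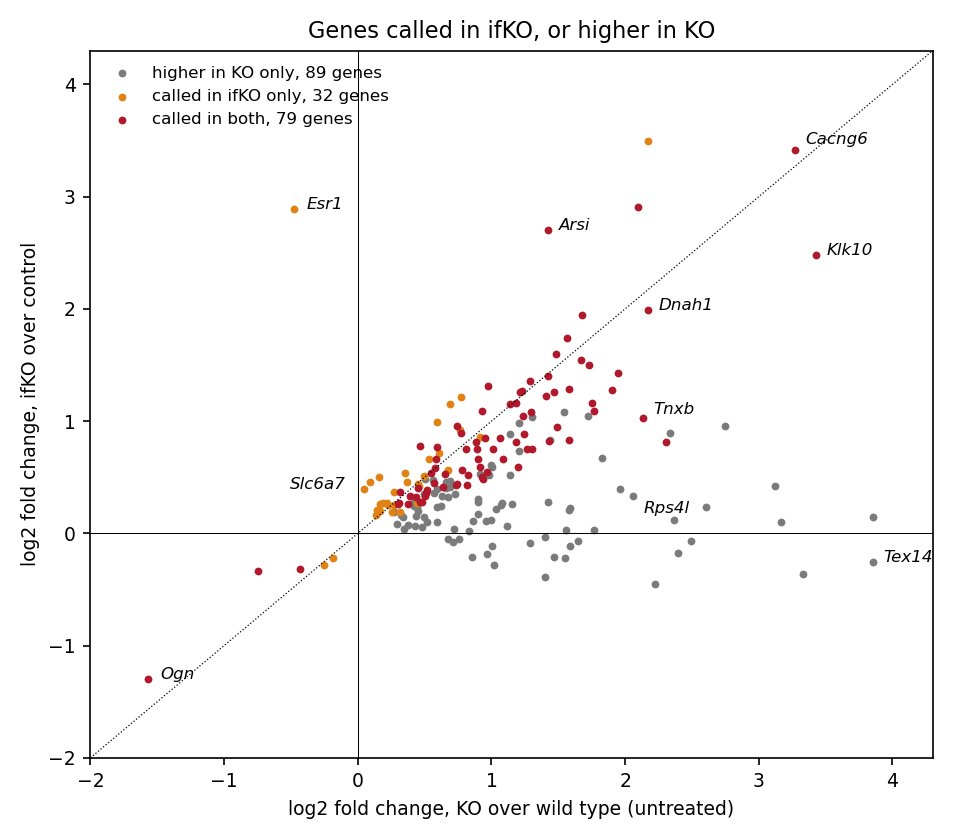
Log2 fold change of ifKO over control (vertical axis) against that of KO over wild type, untreated (horizontal axis), for genes called in ifKO and genes higher in KO that were tested in both, with a dotted line of equal change. The 79 genes called in both (red) follow that line, Esr1 stands alone at the upper left, and the 89 genes higher in KO without being called in ifKO (grey) include Tex14 at the far right near 0 on the vertical axis.

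The difference between the 2 effects was tested directly in a fit of all 18 libraries. It passed for 20 of 17508 genes, or 0.114%, with 1 larger in ifKO (0.00571%) and 19 larger in KO (0.109%). Esr1 was the 1 gene larger in ifKO, by 3.38 ± 0.21 on the log2 scale (edgeR adjusted p = 1.04e-07). Tnxb rose by 1.03 in ifKO against 2.13 in KO, a difference of -1.11 ± 0.16 (adjusted p = 0.00246).

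The largest differences were those of Naa11, Stk31 and Tex14, genes known from germ cells. Tex14, which builds the bridges that join germ cells, had 21, 18 and 13 counts in ifKO and 22, 22 and 19 in controls, so the groups overlapped. In KO it had 574, 227 and 380 counts, against 9, 19 and 24 in wild type. The difference of the log2 effects was -4.11 ± 0.29 (adjusted p = 3.10e-07). Stk31, a kinase of germ cells, had 3, 2 and 1 counts in ifKO and 8, 6 and 3 in controls, against 47, 36 and 41 in KO and 2, 1 and 5 in wild type. Naa11, an acetyltransferase subunit of testis, had 3, 1 and 0 counts in ifKO and 2, 9 and 7 in controls, against 139, 39 and 42 in KO and 2, 1 and 0 in wild type. At this depth neither rose detectably in ifKO. Of the list of 48 germline genes, 24 passed the filter on low counts in the inducible line, and their median log2 fold change was -0.09. None of these was called, where 0.645% of all tested genes were. Of 27 members tested in KO, 8 were higher, where 1.09% of all tested genes were, and the median was 0.42. Members such as Naa11 and Stk31 passed the filter there only through the KO libraries, where they are high. The counts and medians of the mutants therefore cover different members and are not comparable. Counts of all 48 germline genes summed to 124, 128 and 119 CPM in ifKO and 130, 127 and 134 CPM in controls, against 165, 161 and 159 CPM in KO and 131, 142 and 135 CPM in wild type. Tdrkh alone had 53.3 CPM over the ifKO libraries and 57.4 CPM over their controls, and Gsta4 had 29.9 and 29.4 CPM. The sums in the inducible line therefore rest largely on these genes and say little about the rarer members. Of 30 genes that rose over 4-fold in KO, 19 were abundant enough to be tested in ifKO and 6 of these were also higher in ifKO.

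The 107 genes that rose were set beside all tested genes by transcript type, level and GC content, with no test of a difference. Of these genes 21.5% were not protein coding, against 14.8% of all genes tested, and the share was 36.4% among the 33 that rose over 2-fold. Their level in controls, per kilobase of transcript, had a median of 3.30 CPM, against 5.31 CPM for all genes, and 0.808 CPM for those that rose over 2-fold. The control level is part of the fold change by which these genes were chosen. Their GC content had a median of 53.5% against 49.4%. When all tested genes were ordered by GC content into 5 bins of like size, the rises numbered 5, 13, 19, 32 and 38 from the lowest bin to the highest. The median log2 fold change of all genes was -0.03 in the lowest bin and 0.04 in the highest. Libraries within a group differed along GC content as well. Across genes, the deviation from the group mean correlated with GC content at a Spearman rho of 0.28 in ifKO library 3 and -0.28 in ifKO library 2, and at 0.31 in control library 2 and -0.36 in control library 3. With offsets for GC content and length in the fit, 93 of the 107 rises and 33 of the 33 over 2-fold were still called.

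Among the 112 called genes, 12 formed 6 pairs within 100 kb of each other. Besides Cacng6 with 3300002P13Rik, Parvb with Parvg, Arsi with Slc6a7 and the overlapping Zfhx2 with Zfhx2os, these were Sstr3 with Cyth4, an exchange factor of ARF GTPases, and Bmp1 with Lgi3, a secreted neuronal protein. Sstr3 and Cyth4 rose by 0.26 and 0.40, with a gap of 52.4 kb. Bmp1 and Lgi3 moved in opposite directions, at -0.28 and 0.27, with a gap of 10.5 kb. Cyth4 lost its call without ifKO library 2 or any 1 control, and Lgi3 without ifKO library 2 or 3 or control library 2 or 3.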

How the data were processed

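The authors deposited raw counts per Ensembl gene, 1 file per library, without normalization. The submitters' processing notes name the aligner STAR 2.5.0c, the counter HTSeq 0.6.1, and also SAMtools 1.3 and DESeq2, with build GRCm38. The annotation release and the strand setting were not given in the sources used here. Reads were paired, of 75 nt, in the inducible line and single, of 50 nt, in the KO line.

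Summary lines were dropped from the counts. In the inducible line they held 16.0 to 16.7% reads in no feature and 1.03 to 1.06% ambiguous reads. Of 47069 gene IDs, 46574 matched a GENCODE M21 symbol. Counts were tested in R 4.3.3 with edgeR 4.0.16 (TMM factors, filterByExpr with a minimum count of 10 and total of 15, quasi-likelihood test, Benjamini-Hochberg adjustment over all tested genes, threshold 0.05). ifKO was fitted on its 6 libraries, KO with its 12, and their difference on all 18. The fits on 12 and on 18 libraries include those of KO and wild-type mice after novelty exploration. CPM use TMM factors, and the germline sums are per M counts in genes, without those factors. SE is the fold change over the root of F. Over all 153 pairs of the 18 libraries the most similar differed by a chi-square of 3.02 per degree of freedom, above sampling noise. The tests were checked on simulated data. Promoter windows and CG counts are from RefSeq tables.

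Members, gene lists and tests were chosen with earlier results of these data known. Named by rule were Kdm5c and the other H3K4 demethylases, the 12 largest rises and falls with a mean of 1 CPM or more and separate libraries, up to 3 called members per list and direction, called genes within 1 Mb of Camk2a or Kdm5c, Esr1 and Camk2a, and the 5 largest differences each way. Other genes were named after their values were seen, and some results are not reported here. Alternatives were RLE factors, DESeq2 1.42.0, other filters, a replicate block, a test against a fold change of 1.2, other sets of libraries in the fit, and each library left out.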

Additional observations from a re-analysis of the deposited data

Results flagged for a closer look

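For 7 genes the effect of late loss differed from that of lifelong loss by the test of the difference itself, given as the log2 effect of ifKO minus the log2 effect of KO. It was positive for Esr1, at 3.38. It was negative for Naa11 at -7.38, Stk31 at -4.74, Tex14 at -4.11, Gm28286 at -3.99, A830008E24Rik at -3.70 and Tnxb at -1.11. Naa11, Stk31 and Gm28286 did not pass the filter on low counts in the inducible line alone, so their values rest on few counts there. Background, read length, flowcell and the creERT2 transgene also differ between the mutants, and their part in these differences cannot be told apart from that of the time and place of deletion.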

How the results depend on the processing

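The ifKO comparison called 112 genes. It called 398 without a filter on low counts (80.9% higher, against 95.5% with the filter), 49 against a fold change of 1.2, and 56 to 102 with 1 library left out. Without ifKO library 1 and control library 3 together 49 were called, and 101 with GC and length offsets, both settings chosen after seeing the data. With the replicate block 97 were called, 94 of them among the 112. The deviations of same-numbered libraries from their group means correlated at -0.08, -0.01 and -0.21. The labels do not say whether the number pairs libraries, and with so few libraries these values cannot decide it. KO called 204 genes, with 347 without the filter, 122 against a fold change of 1.2, 318 with only the groups compared in the fit, 339 with the offsets (76.1% higher, against 87.3%), 173 with the replicate block, and 121 to 149 with 1 library left out. The difference called 20 genes, with 46 by DESeq2, 83 without the filter, 35 with only the groups compared, 37 with the offsets, 20 with the replicate block, and 18 to 23 with 1 library left out. The causes were not tested. No gene called in ifKO or for the difference changed direction under these alternatives, wherever it was tested. Genes named without a call were not counted in this. Of the 107 rises, 48 were called whichever single library was left out, among them 27 of the 33 over 2-fold, and 106 were called by DESeq2. Of the 107, 48 passed a test against a fold change of 1.2. Of the 30 genes that rose over 4-fold in KO, 19 passed the filter on low counts in the inducible line, and the others were not tested there.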

Other observations

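Among the called genes, 2 noncoding ones lay under 1 CPM in both groups. Gm37184 had 0.442, 0.833 and 0.829 CPM in ifKO and 0.0777, 0.0804 and 0.0226 CPM in controls. Gm36937 had 0.372, 0.338 and 0.415 CPM in ifKO and 0.0777, 0 and 0.0453 CPM in controls.

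G530011O06Rik varied between pools of either group, with 468, 1584 and 57 counts in ifKO and 61, 898 and 663 counts in controls.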
